A study of Mus musculus with 4 samples.

Results

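The cadherin and claudin genes are 40 genes whose symbol is Cdh or Cldn followed by a number, and to which the authors' peak annotation assigns at least 1 promoter or distal peak on chromosomes 1 to 19, X or Y. They comprise 19 cadherins and 21 claudins, out of 25458 genes with such a peak. All 40 had a peak in the Mertk knockout library and 32 had one in the wild-type library. Both libraries came from frozen liver after bile duct ligation, an operation that blocks bile flow and leads to cholestasis and fibrosis. One was made from mice labelled Mertk knockout, lacking a receptor tyrosine kinase that macrophages use to engulf dying cells, and the other from mice labelled wild type. The labels name neither the allele nor the strain, sex, age, time after ligation or number of animals. There was 1 ATAC library per genotype, in which a transposase cuts open chromatin in single nuclei, so every difference below describes these libraries and carries no test.

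Cadherins are calcium-dependent adhesion proteins that pair across neighbouring cells and bind the actin cytoskeleton through catenins at adherens junctions. Claudins are membrane proteins with several passes through the lipid bilayer whose strands form tight junctions and set which ions and solutes pass between cells. In the liver, tight junctions between hepatocytes seal the bile canaliculus from blood, cholangiocytes line the ducts with their own claudin set, endothelial cells are joined by VE-cadherin, and stellate cells carry N-cadherin.

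The knockout library held 5339 called nuclei with 83996145 ATAC fragments, and the wild-type library 5828 nuclei with 40858512. Peaks numbered 106319 in the knockout library, covering 91.3 Mb, and 72302 in the wild-type library, covering 61.8 Mb. The peak lists pool all nuclei of a library, so more nuclei of a cell type and more open sites per nucleus cannot be told apart. Of 8 hepatocyte markers, all had peaks in the knockout library, with 87 peaks in total. In the wild-type library 6 of them (Alb, Cps1, Cyp3a11, Slco1b2, Abcb11 and Serpina1a) had none and the list had 8 peaks, although the label reads liver. Leukocyte markers had 31 knockout and 36 wild-type peaks and mesothelial markers 5 knockout and 6 wild-type peaks. Peaks at Mertk numbered 13 in the knockout and 10 in the wild-type library, and do not check the genotype, since a mutated gene can keep its open sites. The part that depth, peak number and cell makeup had in the differences below was not tested.

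The sequences below are the 250 bases before a RefSeq gene start (GRCm38.p6, the assembly behind mm10), read along the gene, with every CG dinucleotide in capitals. They are shown because windows under a peak in both libraries differed in CG content from those under a knockout peak alone. The first pair were covered by a peak in both libraries. Cldn1 encodes a barrier claudin and Cldn12 a claudin without the usual scaffold-binding tail.
Cldn1 (chr16:26371840-26372089, minus strand): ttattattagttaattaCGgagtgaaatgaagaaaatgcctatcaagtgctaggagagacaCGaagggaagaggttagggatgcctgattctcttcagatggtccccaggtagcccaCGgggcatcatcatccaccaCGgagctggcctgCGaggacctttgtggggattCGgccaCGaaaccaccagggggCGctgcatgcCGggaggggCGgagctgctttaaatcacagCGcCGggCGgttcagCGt
Cldn12 (chr5:5514790-5515039, minus strand): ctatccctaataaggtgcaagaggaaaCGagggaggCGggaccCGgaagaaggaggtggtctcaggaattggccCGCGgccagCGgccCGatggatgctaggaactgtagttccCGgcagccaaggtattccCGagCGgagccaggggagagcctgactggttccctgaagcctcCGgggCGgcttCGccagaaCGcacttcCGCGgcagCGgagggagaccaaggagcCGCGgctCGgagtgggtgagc
The next 3 were covered in the knockout library alone. Cldn3 encodes a barrier claudin of hepatocytes and ducts, Cldn14 a claudin that restricts cation passage, and Cdh15 the muscle cadherin.
Cldn3 (chr5:134985964-134986213, plus strand): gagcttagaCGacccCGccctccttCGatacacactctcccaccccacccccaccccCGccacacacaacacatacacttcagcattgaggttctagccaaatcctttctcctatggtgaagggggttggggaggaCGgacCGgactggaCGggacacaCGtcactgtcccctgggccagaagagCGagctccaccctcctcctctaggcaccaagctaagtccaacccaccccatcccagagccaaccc
Cldn14 (chr16:93929568-93929817, minus strand): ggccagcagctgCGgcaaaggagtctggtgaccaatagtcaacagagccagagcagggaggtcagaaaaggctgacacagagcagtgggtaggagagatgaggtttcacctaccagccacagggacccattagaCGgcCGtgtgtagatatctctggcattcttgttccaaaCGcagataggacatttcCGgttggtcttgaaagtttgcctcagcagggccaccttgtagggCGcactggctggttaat
Cdh15 (chr8:122848124-122848373, plus strand): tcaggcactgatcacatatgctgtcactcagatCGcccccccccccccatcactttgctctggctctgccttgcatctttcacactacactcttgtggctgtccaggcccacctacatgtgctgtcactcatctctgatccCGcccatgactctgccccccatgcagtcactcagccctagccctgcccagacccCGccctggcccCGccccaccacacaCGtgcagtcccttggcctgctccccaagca
One was covered in the wild-type library alone, the downstream of the starts listed for Cldn10, a claudin gene with alternative first exons.
Cldn10 (chr14:118854700-118854949, plus strand): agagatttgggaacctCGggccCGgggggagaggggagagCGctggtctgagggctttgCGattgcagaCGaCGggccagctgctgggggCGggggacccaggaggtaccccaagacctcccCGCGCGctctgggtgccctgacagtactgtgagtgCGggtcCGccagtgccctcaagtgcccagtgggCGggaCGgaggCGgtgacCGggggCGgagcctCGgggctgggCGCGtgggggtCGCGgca
The window of Cldn2, which encodes a claudin that forms a channel for cations and water, was covered in neither.
Cldn2 (chrX:139800558-139800807, plus strand): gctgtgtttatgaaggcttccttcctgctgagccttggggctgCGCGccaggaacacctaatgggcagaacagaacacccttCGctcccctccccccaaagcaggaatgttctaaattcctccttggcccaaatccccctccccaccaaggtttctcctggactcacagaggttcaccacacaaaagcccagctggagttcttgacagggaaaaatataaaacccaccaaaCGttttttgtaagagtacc

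The Cldn1 and Cldn12 windows held 14 and 20 CG dinucleotides, while those of Cldn3, Cldn14 and Cdh15 held 9, 6 and 5. Another Cldn12 window covered in both libraries (chr5:5514977-5515226) held 6, as many as Cldn14 and fewer than Cldn3, at a GC content of 42%. RefSeq promoters were matched for 27 of the 40 genes, which gave 34 windows, since some genes have several starts. The CpG ratio is the number of CG dinucleotides over that expected from the window's C and G content. It ran from 0.548 to 0.799 in the 6 windows covered in both libraries, with a median of 0.748. In the 7 windows covered in the knockout library alone it ran from 0.263 to 0.437, with a median of 0.337, so the ranges did not overlap. A window counts as covered from 1 base on, and the Cdh23 window had 19 of its 250 bases under a knockout peak. Cdh23 and Cldn15 had peaks annotated as promoter in both libraries, of which the wild-type ones lay outside these windows. These windows belong to 4 and 6 genes, and those of Cldn12 and of Cldn14 lie side by side or overlap. Over all genes the same classes had medians of 0.745 (13085 windows, both) and 0.358 (2719 windows, knockout alone). The difference in medians was thus not particular to junction genes. The ranges over all genes did overlap, from 0 to 1.57 for both libraries and from 0 to 1.39 for knockout alone. The Cldn10 window, at 0.716, lay in the range of windows covered in both libraries and above the median of 0.288 over the 577 windows of all genes covered in the wild-type library alone. The median of the 20 uncovered windows was 0.372.

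**Figure D1:**
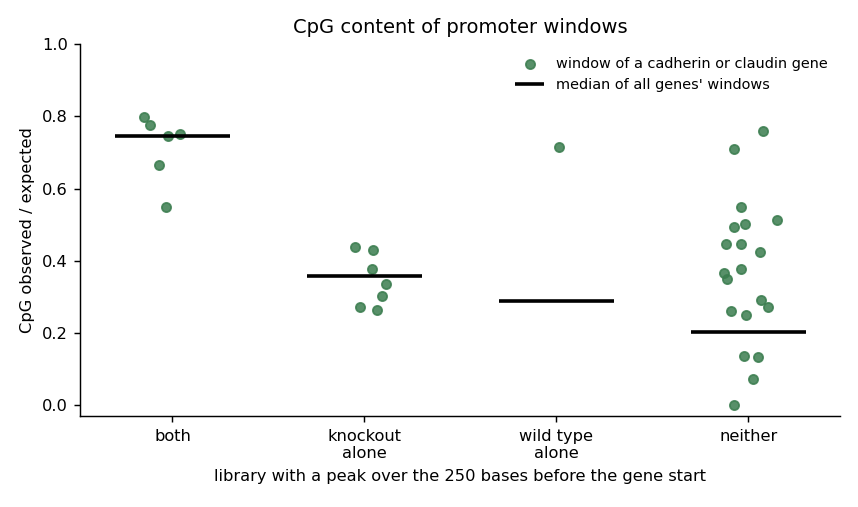
CpG observed over expected ratio of the 250 bases before the start (y axis, a ratio without unit) by the library with a peak over the window (x axis). Green points are 34 windows of cadherin and claudin genes, and black bars are medians over the windows of all genes. Among the green points, windows covered in both libraries reach from 0.548 upward and those covered in the knockout library alone up to 0.437.

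Short motifs were searched in the 34 windows on both strands. The ETS word GGAAG was in 21 windows (61.8%, against 64.1% of the 32851 windows of all genes). The TEAD word GGAATG was in 6 (17.6%, against 12.6%), the E-box CACCTG in 4 (11.8%, against 17.2%), the AP-1 word TGANTCA in 2 (5.88%, against 6.75%) and the GATA word AGATAA in 1 (2.94%, against 9.99%). ETS and TEAD words share their first letters and cannot match at the same position on a strand. The AP-1 matches were in the windows of Cldn4 and Cldn15. The C/EBP word TTGCNNCAA and the HNF4 word CAAAGTCCA matched none of the 34 windows, against 1.74% and 0.384% of all windows. These matches describe letters only.

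Over the whole family, more peaks were called in the knockout library. Cadherin and claudin genes were assigned 280 peaks (241 kb) in the knockout library and 130 peaks (112 kb) in the wild-type library, a ratio of 2.15 in peak number, against 1.47 over all genes. No peak was assigned to more than 1 cadherin or claudin gene, and mean peak widths were 861 bp in the knockout and 862 bp in the wild-type library. Cadherins had 184 knockout and 89 wild-type peaks, and claudins 96 knockout and 41 wild-type peaks. More knockout than wild-type peaks were found for 36 of 40 genes (90.0%), against a background of 60.3% of all genes. Cdh6, a cadherin of kidney tubules, was the single gene with fewer, 1 knockout and 2 wild-type peaks; 16.2% of all genes had fewer. Numbers were equal for Cdh22 (4 each), Cldn22 (3 each) and Cldn9 (1 each). Knockout peaks without any wild-type peak were found for 8 genes (20%), against 13.0% of all genes. The reverse was found for 0 of the 40 genes and for 2.14% of all genes.

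**Figure D2:**
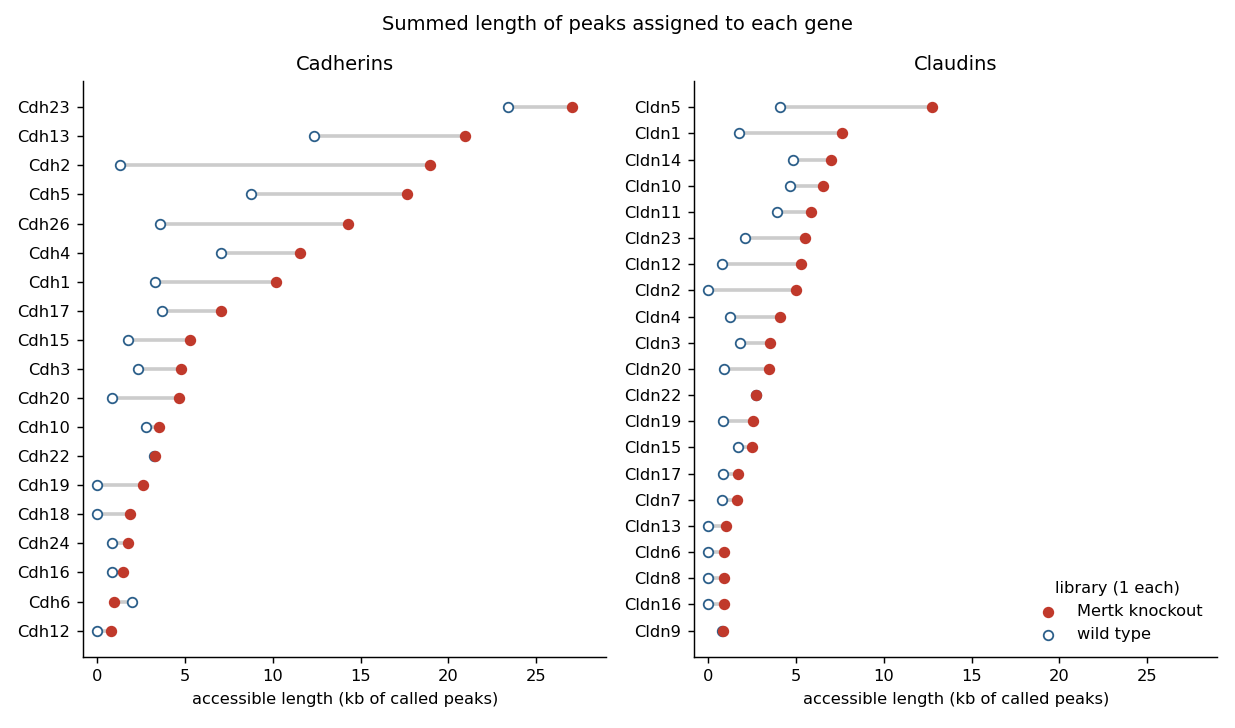
Accessible length in kb (x axis), the summed length of peaks assigned to a gene, for 19 cadherins (left) and 21 claudins (right), with 1 library per genotype. Red filled points are the knockout library and open blue points the wild-type library; the widest gap is at Cdh2, 18.9 kb in the knockout and 1.32 kb in the wild-type library.

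Accessible length was compared as the log2 ratio of knockout over wild type after adding 1 kb to each, centred on the median gene, whose own ratio was 0.39 on the log2 scale. The comparison was kept to genes with a mean of at least 2 kb over both libraries, which 26 of the 40 reached. A gene at or past 1 was counted as higher and one at or past -1 as lower, which is a size threshold with no test behind it. By this threshold 7 of the 26 were higher in knockout (26.9%), against 10.3% of 14692 genes. None of the 26 was lower, against 4.08%. The median centred log2 ratio was 0.48, with 22 of the 26 genes above 0, the value of the median gene. It was 0.41 over 13 cadherins and 0.68 over 13 claudins. The 7 higher genes were Cdh2 (2.71), Cldn2 (2.19), Cldn12 (1.41), Cdh26 (1.35), Cldn1 (1.24), Cdh20 (1.20) and Cldn5 (1.05). Because the minimum is a mean, a gene at 0 in wild type enters only with a knockout length already past the threshold. This fixed the call for Cldn2. Wild-type length was also under 2 kb for Cldn12 (0.802 kb), Cdh20 (0.875 kb), Cdh2 (1.32 kb) and Cldn1 (1.79 kb). With no minimum 10 of 40 genes were higher, against 11.3% of all genes. Cldn5 lay just inside the rule and Cdh1, at 0.98, just outside it. When the knockout list was reduced to its widest peaks, as many as in the wild-type list, 194 knockout and 130 wild-type peaks remained at these genes, the median was 0.46 and 4 of 22 genes were higher, against 9.86% of all genes in that setting.

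The hepatocyte junction list holds Cdh1, Cdh2, Cldn1, Cldn2, Cldn3, Cldn12 and Cldn14, and had 68 knockout and 16 wild-type peaks. Each of the 7 had more knockout than wild-type peaks, as did 60.3% of all genes. Of the 7, 4 passed the size threshold as higher (10.3% of all genes did), and the list median of the centred log2 ratio was 1.24. Cdh2, which is also on the stellate list, supplied 22 of the 68 knockout peaks. It also supplied 21 of the 55 knockout peaks on this list that overlapped no wild-type peak. In all, 13 of the 68 knockout peaks (19.1%, against 49.5% over all genes) overlapped a wild-type peak, while 14 of the 16 wild-type peaks (87.5%, against 72.5%) overlapped a knockout peak. The hepatocyte markers moved with them, with a median of 2.59 over 8 genes. All 8 were past the threshold as higher (against 10.3% of all genes) and had their promoter peak in knockout alone (against 10.6%). Of these 8 markers, 6 had no wild-type peak, so the 2 kb minimum admitted them only at a length already past the threshold. Their part in the junction gene result was not tested.

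Cdh1 encodes E-cadherin, the cadherin of epithelial adherens junctions, carried by periportal hepatocytes and ducts alike (chr8:106603350-106670247). It had 12 peaks (10.2 kb) in the knockout library and 4 peaks (3.31 kb) in the wild-type library. All 4 wild-type peaks overlapped knockout peaks, at the promoter and at 7442, 16111 and 30195 bp past the start. The wild-type sites were thus a subset of the knockout sites. The 8 knockout peaks without a wild-type partner lay 3460 bp before the start, at 615, 1989, 3282, 19565 and 21163 bp past it, and at a pair of sites within Cdh1 that were also assigned to Tango6.

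Cdh2 encodes N-cadherin, found on hepatocytes, stellate cells and neurons (chr18:16588877-16809246). It had 22 peaks (18.9 kb) in the knockout library and 1 peak (1.32 kb) in the wild-type library, the largest ratio among the 26 genes with 1 kb added. The wild-type peak, 1315 bp wide, lay inside the gene (chr18:16739082-16740396) and overlapped a knockout peak by 790 bp. The promoter peak (chr18:16808974-16809788) was found in the knockout library alone. Of the knockout peaks 8, and the single wild-type peak, were also assigned to Gm15485, a gene model inside Cdh2. Counting peaks of a single gene only, no wild-type peak was left.

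Cldn1 encodes a claudin that tightens the canalicular seal (chr16:26356645-26371839). It had 10 peaks (7.63 kb) in the knockout library and 2 peaks (1.79 kb) in the wild-type library. The promoter peak was common to both libraries, with 815 bp of overlap, and covers the CG-rich window printed above. Each library then had distal peaks of its own. The knockout library had 9, the nearest 1947 bp past the start, and the wild-type library had 1 at 22326 bp. The centred log2 ratio of 1.24 was 0.93 with peaks within 50 kb and 0.94 on matched peak number, both under the threshold. Cldn16, its neighbour and a claudin of renal magnesium reabsorption, had 1 knockout peak and no wild-type peak.

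Cldn2 had 6 peaks (5.01 kb) in the knockout library and is listed at 0 in the wild-type library (chrX:139800808-139811386). None of the 6 was a promoter peak. They lay 5744 and 2202 bp before the start and 4897, 6031, 7210 and 31480 bp past it, on either side of the uncovered window printed above. Its centred log2 ratio depends on the added length, at 1.49 with 2 kb and 3.02 with 0.5 kb in place of 1 kb, since the wild-type value is 0, and on matched peak number it fell under the 2 kb minimum.

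**Figure D3:**
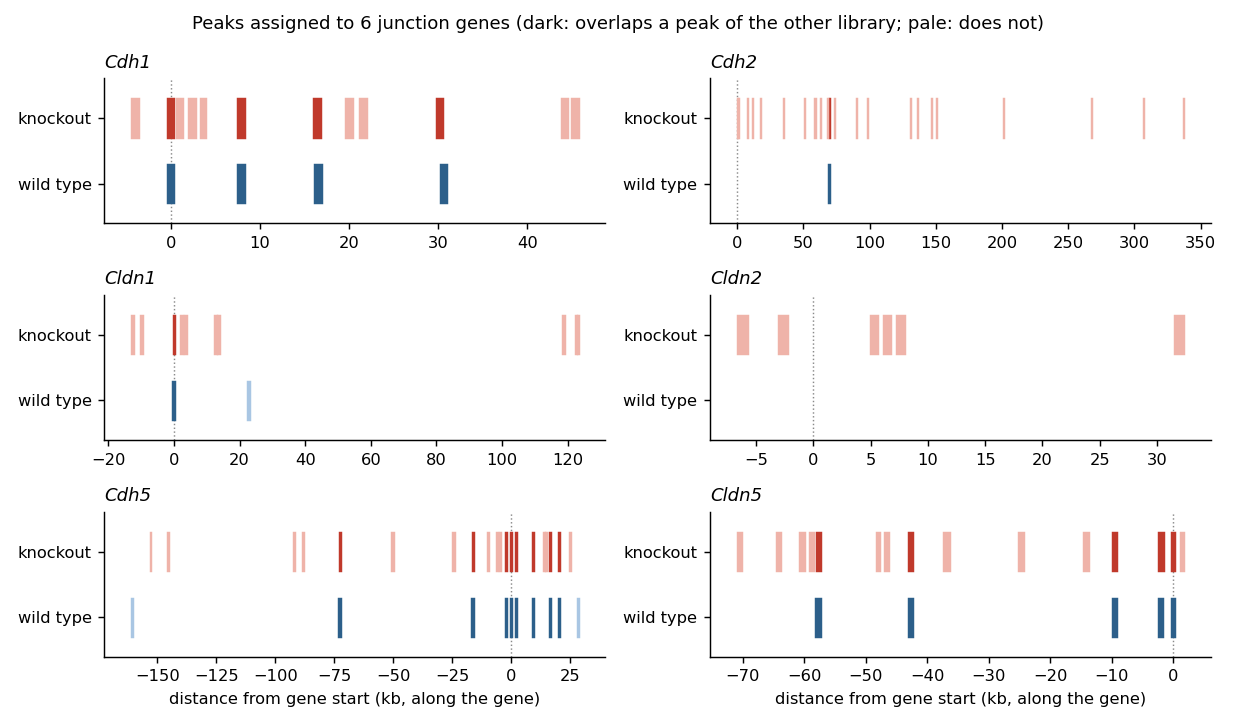
Peaks assigned to Cdh1, Cdh2, Cldn1, Cldn2, Cdh5 and Cldn5 by distance from the gene start in kb (x axis, positive along the gene), with the knockout library above the wild-type library. Zero is the centre of the knockout promoter peak, or for Cldn2 the RefSeq start; dark boxes overlap a peak of the other library and pale boxes do not. Cdh2 shows 22 knockout boxes over 1 wild-type box, and Cldn5 shows 15 over 5.

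Cldn12 (chr5:5505015-5514976) had 6 peaks (5.28 kb) in the knockout library and 1 peak (0.802 kb) in the wild-type library. The single wild-type peak was the promoter peak, and 798 of its 802 bp lay under the knockout promoter peak. The gene thus had its promoter open in both libraries and distal peaks in the knockout library alone. Cldn14 (chr16:93919031-94008837) differed little by comparison, with 8 peaks (6.97 kb) in the knockout and 6 peaks (4.85 kb) in the wild-type library and a centred log2 ratio of 0.05. All 6 of its wild-type peaks overlapped knockout peaks, but its promoter peak was in the knockout library alone. Cldn3 (chr5:134986214-134987476) had 4 peaks (3.51 kb) in the knockout and 2 peaks (1.81 kb) in the wild-type library. Its promoter peak was also in the knockout library alone, and 1 distal site, 4494 bp before the start in the knockout library, was common to both.

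The duct junction genes lay nearer to the median gene. The list holds Cdh1 and Cldn3, which it shares with the hepatocyte list, and Cldn4, Cldn7 and Cldn10. Together they had 30 peaks in the knockout library and 14 in the wild-type library. All 5 had more knockout peaks (against 60.3% of all genes). Of the 4 that reached 2 kb, 0 passed the size threshold (against 10.3% of all genes as higher and 4.08% as lower), and the median centred log2 ratio was 0.54. Cholangiocyte markers were split: Pkhd1 had 9 knockout peaks and 0 wild-type peaks, and Sox9 2 knockout and 0 wild-type. Epcam had 2 knockout and 3 wild-type peaks, Spp1 6 knockout and 5 wild-type, and Krt19 1 in each library. Their part in the duct values was not tested.

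Cldn4, a claudin of simple and ductal epithelia (chr5:134945123-134946934), had 5 peaks (4.07 kb) in the knockout library and 2 peaks (1.25 kb) in the wild-type library. Both wild-type peaks overlapped knockout peaks, and neither library had a promoter peak. Cldn7 (chr11:69964779-69967886) fell under the 2 kb minimum, with 2 knockout peaks (1.65 kb) and 1 wild-type peak (0.780 kb). Cldn10 (chr14:118787871-118874525) had 7 peaks (6.55 kb) in the knockout library and 5 peaks (4.65 kb) in the wild-type library. Of the 40 genes it alone had a promoter peak in wild type and none in knockout (chr14:118854236-118855081), at the downstream start printed above. The knockout peak nearest to that start (chr14:118848047-118848934) was annotated as 5798 bp before a start that differs from the RefSeq start of the printed window. Of the distal peaks, 3 were common to both libraries.

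The endothelial junction genes had peaks in both libraries. Cdh5, Cdh13 and Cldn5 had 59 peaks in the knockout library and 29 in the wild-type library. Of these 25 knockout peaks (42.4%, against 49.5% over all genes) and 25 wild-type peaks (86.2%, against 72.5%) overlapped a peak of the other library. The median centred log2 ratio was 0.54. Endothelial markers had 118 knockout and 70 wild-type peaks, a median of 0.38, and a promoter peak in both libraries for all 7 listed genes (against 56.2% of all genes). Cdh5 and Cldn5 likewise had their promoter peaks in both libraries.

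Cdh5 encodes VE-cadherin, the adherens junction cadherin of endothelium (chr8:104101613-104144504). It had 20 peaks (17.7 kb) in the knockout library and 10 peaks (8.79 kb) in the wild-type library, of which 8 in each overlapped. The wild-type promoter peak lay wholly inside the knockout one, over 877 bp. Each library had distal peaks of its own, 12 in the knockout and 2 in the wild-type library, the farthest 152602 bp before the start in the knockout and 160280 bp before it in the wild-type library. Cdh13, which encodes T-cadherin, a cadherin held in the membrane by a lipid anchor (chr8:118140017-119324929), had 24 peaks (20.9 kb) in the knockout library and 14 peaks (12.3 kb) in the wild-type library. In each library 12 of them overlapped, and no peak was annotated as its promoter. Cldn5 encodes the main claudin of endothelial tight junctions (chr16:18776847-18778262), with 15 peaks (12.7 kb) in the knockout library and 5 peaks (4.07 kb) in the wild-type library. All 5 wild-type peaks overlapped knockout peaks. Its centred log2 ratio of 1.05 was 0.78 with peaks within 50 kb of the start, and 0.93 to 0.97 with scaling by covered length, 2 kb added or matched peak number, all under the threshold.

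Of the stellate list, Cdh2 was examined and Cdh11 was not analysed here. Cdh2 is shared with the hepatocyte list, so its 22 knockout peaks and 1 wild-type peak cannot be given to a cell type. Stellate markers had 59 knockout and 8 wild-type peaks over 7 genes, 6 of them with promoter peaks in knockout alone (against 10.6% of all genes). Des and Lrat were at 0 in the wild-type library.

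**Figure D4:**
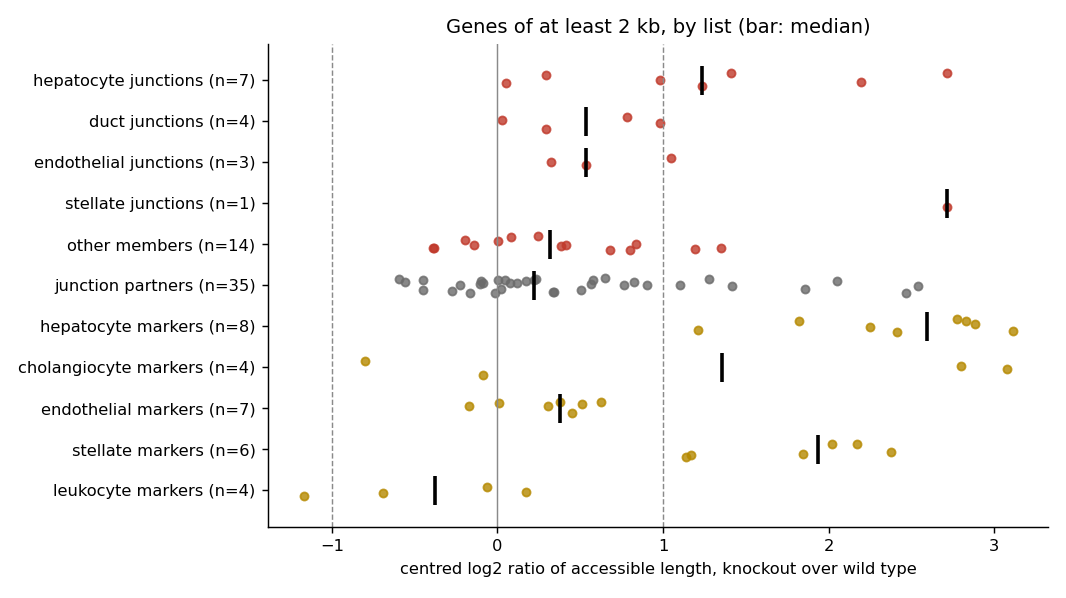
Centred log2 ratio of accessible length, knockout over wild type (x axis), for genes of at least 2 kb in the liver junction lists, the other cadherins and claudins, the junction partners and the cell type markers (rows). Points are genes, black bars list medians, dashed lines the size threshold at -1 and 1; Cdh1, Cdh2 and Cldn3 stand in more than 1 row, and the hepatocyte junction median of 1.24 lies between those of duct junctions (0.54) and hepatocyte markers (2.59).

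Cadherins best known from nerve, muscle, kidney and gut differed among themselves. The 9 neural and type II cadherins had 35 knockout and 19 wild-type peaks. Of 4 that reached 2 kb, 1 was higher (25%, against 10.3% of all genes), and their median centred log2 ratio was 0.05. The 6 kidney and gut genes had 18 knockout and 8 wild-type peaks, and 0 of 2 that reached 2 kb were higher (against 10.3%). Cdh26, a cadherin of gut epithelium in humans (chr2:178430515-178487366), had 17 peaks (14.3 kb) in the knockout library and 4 peaks (3.57 kb) in the wild-type library. All of them were distal, from 40904 to 198906 bp past the start in the knockout library, and 3 sites were common to both, so within 50 kb the gene was under the 2 kb minimum. Cdh20, a type II cadherin of the nervous system (chr1:104768340-104995481), had 5 peaks (4.64 kb) in the knockout library and 1 peak (0.875 kb) in the wild-type library. Its wild-type peak overlapped a knockout peak and was also assigned to Gm15699, and its centred log2 ratio of 1.20 was 0.89 with 2 kb added, under the threshold. With peaks annotated within 50 kb or peaks of a single gene, Cdh20 was under the 2 kb minimum. Cdh19, a cadherin of Schwann cells, had 3 peaks (2.59 kb) in the knockout library and is listed at 0 in the wild-type library, under the 2 kb minimum.

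Cdh23, which encodes a cadherin of the hair-cell tip link (chr10:60302748-60696513), had the most peaks, 32 (27.0 kb) in the knockout library and 27 (23.4 kb) in the wild-type library. In each library 17 overlapped, and its centred log2 ratio was -0.19. Most were also assigned to another gene, 28 in the knockout and 18 in the wild-type library. Vsir, an immune checkpoint gene, took 13 knockout and 12 wild-type peaks, and the gene model Gm17455 took 13 knockout and 5 wild-type peaks. On peaks of a single gene Cdh23 had a ratio of -1.31, which passed the size threshold as lower. The other genes below the median gene were Cdh22 (-0.39) and Cdh10 (-0.14), cadherins of the nervous system, and Cldn22 (-0.38), whose 3 peaks in each library were all also assigned to Wwc2. Without centring all 4 were above 0, from 0.00 for Cdh22 to 0.25 for Cdh10.

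Promoter peaks specific to the knockout list were found at 7 genes, 17.5% against 10.6% of all genes. Besides Cdh2, Cldn3 and Cldn14 they were Cdh3, Cdh10, Cdh15 and Cdh18. Cdh3 encodes P-cadherin of epithelia and placenta and lies just before Cdh1 on chromosome 8 (chr8:106510852-106556911). It had 6 peaks (4.80 kb) in the knockout and 3 peaks (2.32 kb) in the wild-type library. Cdh15 had 6 knockout peaks (5.30 kb) and 2 wild-type peaks (1.75 kb), both of which overlapped. Cdh10 had 4 knockout peaks (3.51 kb) and 3 wild-type peaks (2.78 kb), with 1 overlap, and Cdh18, also a type II cadherin of the nervous system, had 2 knockout peaks (1.88 kb) and none in the wild-type library. A promoter peak specific to the wild-type list was found at 1 gene, Cldn10, 2.50% against 2.19% of all genes. It was present in both libraries at 12 genes (30%, against 56.2%) and in neither at 20 (50%, against 31.0%). With the knockout list reduced to its 72302 widest peaks these counts were 4 in knockout alone, 6 in wild type alone and 7 in both. This setting removes knockout peaks only, and the matching promoter shares over all genes were not computed. The shift can therefore not be read as particular to cadherin and claudin genes.

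The remaining genes had fewer peaks or small differences. Cdh4, R-cadherin of retina and brain, had 13 knockout and 8 wild-type peaks, and all 8 overlapped. Cdh17, the cadherin of intestinal epithelium, had 8 knockout and 4 wild-type peaks, Cldn11, of oligodendrocytes and Sertoli cells, 7 knockout and 5 wild-type, and Cldn23 6 knockout and 3 wild-type. Cldn20 had 4 knockout peaks and 1 wild-type peak, all also assigned to Tiam2. Cldn15, a pore-forming claudin of the gut, had 3 knockout and 2 wild-type peaks, with a promoter peak in both libraries. Cldn19, a partner of Cldn16 in the kidney, had 3 knockout peaks and 1 wild-type peak, while Cdh16, the kidney-specific cadherin, Cdh24 and Cldn17 each had 2 knockout peaks and 1 wild-type peak. Cdh12, Cldn6, Cldn8 and Cldn13 each had 1 knockout peak and no wild-type peak.

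Peaks found in both libraries made up different shares of each list. Of the knockout peaks 104 of 280 (37.1%, exact 95% interval 31.5 to 43.1) overlapped a wild-type peak, against 49.5% of knockout peaks over all genes. Of the wild-type peaks 105 of 130 (80.8%, 72.9 to 87.2) overlapped a knockout peak, against 72.5% over all genes. The intervals are Clopper-Pearson and cover counting error only. They treat every peak as a separate draw, although the 5 genes with most peaks held 115 of the 280 knockout peaks. Peaks of the same gene may go together, so the intervals are no test against the shares over all genes. Cadherin and claudin sites open in the wild-type library were thus mostly also called in the knockout library, and 176 knockout peaks had no wild-type partner. Where peaks overlapped, the median overlap was 824 bp in the knockout list, and matched and unmatched knockout peaks had like median widths, 880 and 884 bp.

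By kind of peak, 12 of 20 knockout promoter peaks (60.0%, against 78.9% of all) and 12 of 14 wild-type promoter peaks (85.7%, against 93.5%) were shared. Of distal peaks, 92 of 260 in the knockout library (35.4%, against 44.3%) and 93 of 116 in the wild-type library (80.2%, against 67.7%) were shared. Distal peaks with an annotated distance of over 50 kb from the start had the lowest knockout share, 14 of 61 (23.0%, against 38.4% over all genes). Distal peaks annotated at a distance of 0 had 34 of 75 (45.3%, against 44.3% over all genes). Other distal peaks inside genes carried a distance and were counted by it, so neither share is that of all peaks in gene bodies.

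**Figure D5:**
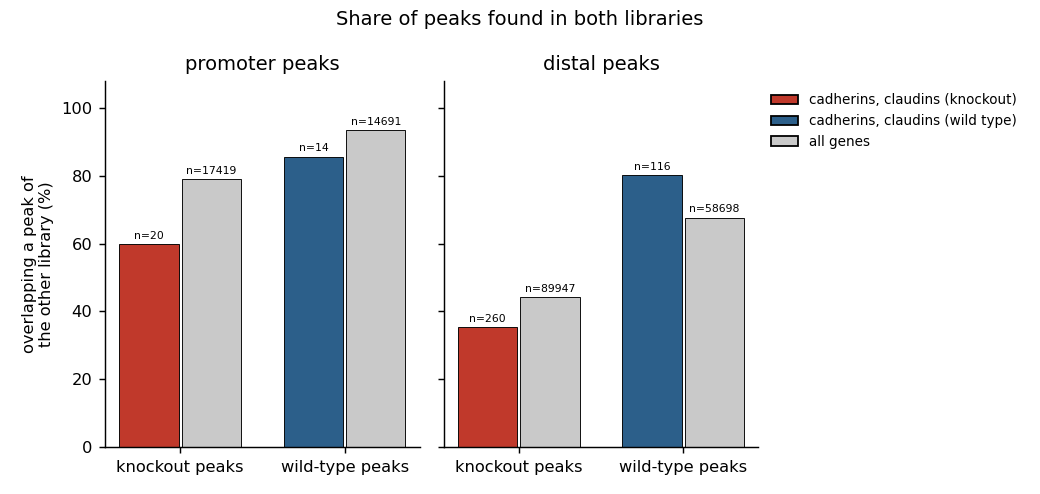
Share of peaks in percent sharing 1 bp or more with some peak of the opposite library (y axis), for promoter peaks (left) and distal peaks (right), knockout peaks before wild-type peaks (x axis). Coloured bars are cadherin and claudin genes, grey bars all genes, and n the number of peaks; for distal knockout peaks the bars stand at 35.4% and 44.3%, for distal wild-type peaks at 80.2% and 67.7%.

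Proteins that work with cadherins and claudins were examined as a list of 36 genes (catenins, tight junction membrane and scaffold proteins, nectins, connexins and desmosomal cadherins), which had 421 knockout and 216 wild-type peaks. Of 35 that reached 2 kb, 7 were past the threshold as higher in knockout (20%, against 10.3% of all genes) and 0 lower, and the median was 0.22. Ocln, the gene of the tight junction protein occludin, had 8 knockout peaks and 0 wild-type peaks, and Dsg2, a desmosomal cadherin gene, 7 knockout and 0 wild-type. Both reached the 2 kb minimum by knockout length alone, which fixed their calls. Ctnna2, the alpha-catenin of neurons, had 12 knockout peaks and 1 wild-type peak, Pard3, a polarity scaffold at tight junctions, 43 knockout and 8 wild-type, and Gjb1, the connexin of hepatocyte gap junctions, 8 knockout and 2 wild-type. Dsc2, a desmosomal cadherin gene, and Nectin3, an adhesion receptor of adherens junctions, each had 6 knockout peaks and 1 wild-type peak. Promoter peaks in knockout alone were found at 6 of the 36 (against 10.6% of all genes). These were Ocln, Dsg2, Ctnna2, Gjb1, Ctnnd2 (8 knockout and 7 wild-type peaks) and Magi2 (18 knockout and 12 wild-type peaks). A promoter peak in wild type alone was found at 0 of the 36 (against 2.19%). The widely used adherens junction genes Ctnnb1 (4 knockout and 2 wild-type peaks) and Ctnna1 (6 knockout and 4 wild-type) and the scaffold gene Tjp1 (28 knockout and 20 wild-type) had centred log2 ratios between 0.07 and 0.23. Fewer knockout than wild-type peaks were found at Nectin4, an adhesion receptor gene (6 knockout and 7 wild-type).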

How the data were processed

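Frozen livers of bile duct ligated mice were read with the 10x Genomics Multiome assay, aiming at 10000 nuclei and using paired 150 bp reads, per the labels. Per the file headers, the authors called peaks in each library with cellranger-arc 2.0.2 on mm10. The deposited peak lists hold positions without height or score, and the deposited annotation gives each peak's genes, distance from the start and kind. Raw counts per barcode, as deposited by the authors, were used for depth alone. Peaks on other contigs (44 in the knockout and 43 in the wild-type library) were left out. Accessible length, overlap of at least 1 bp, the 2 kb minimum, the 1 kb pseudocount and the size threshold were computed in Python 3.11.15 (numpy 2.4.6, pandas 2.3.3, scipy 1.17.1, matplotlib 3.10.9). The ratio was also run on simulated data, with changes planted only in genes with many peaks. That run does not cover changes in genes with few peaks, such as Cldn2. With 1 library per genotype, depth limits the precision and intervals cover counting error only. Members, gene lists and rules were chosen with earlier results of these data known. Genes described singly were those of the 4 liver lists, past the size threshold, with a promoter peak in 1 library alone, or with at least 3 peaks against 0, and partners past that rule or with such a promoter peak. Tjp1, Ctnna1, Ctnnb1, Cdh23 and other genes beyond this rule were named after their values were seen. A few listed genes are not reported here.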

Additional observations from a re-analysis of the deposited data

How the results depend on the processing

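Of 15 alternatives, those that gave a value left the median centred log2 ratio of the cadherin and claudin genes above 0, from 0.36 with a 4 kb minimum to 0.87 without centring. The number of genes higher in the knockout library, 7 of 26, was 12 of 26 without centring (against 19.6% of all genes), 4 of 13 with a 4 kb minimum (8.58%), 4 of 24 with peaks within 50 kb (9.5%) and 4 of 22 with the widest knockout peaks matched in number to the 72302 wild-type peaks (851 bp or wider; 9.86%). In the 50 kb setting, distal peaks annotated at a distance of 0 were kept however far they lay from the start. The number lower was 1 on peaks of a single gene. Peak numbers were then 184 in the knockout and 78 in the wild-type library, and on promoter peaks alone 20 in the knockout and 14 in the wild-type library, where 60.0% of the knockout peaks were shared. On matched peak number, promoter peaks were in both libraries for 7 genes, in knockout alone for 4 and in wild type alone for 6, and 60.8% of wild-type peaks were shared. Only knockout peaks were removed in that setting, and the shares over all genes were not computed for these values. The causes of these shifts were not tested, apart from fewer peaks or genes entering by construction. On promoter peaks alone no gene reached 2 kb. No paired analysis was possible because each genotype has 1 library. The lists give no score, so a threshold on peak strength could not be tried.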
